A study of Homo sapiens with 3 samples.

Results

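The genes described here are IL13RA2 and 5 further genes of interleukin-4 and interleukin-13 signalling, IL13RA1, IL4R, JAK1, TYK2 and STAT6. They were taken by symbol from a deposited table of 19076 gene entries, and all 6 were present. The genes were selected on these libraries: IL13RA2 was chosen by its large RPKM differences between S473D, S473A and wt, so those differences are given as a description, and the others for their place in its pathway. RNA had been sequenced from MDA-MB-231, an established human breast cancer cell line with basal-like, mesenchymal features. In all 3 libraries the cells carried a short hairpin RNA against KAP1 (gene TRIM28), a corepressor of transcription, and re-expressed 1 form of KAP1. The forms were wild type (wt), S473A, in which alanine stands in place of the serine and cannot be phosphorylated, and S473D, in which aspartate carries a negative charge like that of a phosphorylated serine. The comparisons ask how transcript levels differ between cells with these forms.

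Each form gave 1 library, so no spread between cultures is known, no test of a difference exists, and no p-value is given. A difference due to the form of KAP1 cannot be told apart from one between cultures or library preparations, and the labels do not say whether the cells were pools or single clones. Values are RPKM, read numbers scaled to the length of the gene model and to the depth of the library, which allows levels of different genes to be compared per length. Where 3 values follow each other without a library name, they are those of wt, S473A and S473D in that order. Differences are on the log2(RPKM + 1) scale, where 1 stands for 2-fold, and the intervals are exact 95% intervals for counting error only. The estimated depth was 24000000 to 29500000 counted reads per library. Of 8 mesenchymal markers of the labelled line 7 had a mean of at least 1 RPKM, VIM among them at 673 to 740 RPKM, and SPARC was low at 0.151, 0.208 and 0.128. Of 10 epithelial or luminal markers CDH1, EPCAM, PGR and ESR1 were below 1 RPKM in every library, and KRT8, KRT18, KRT19, ERBB2, GATA3 and FOXA1 were above it. TRIM28, the depleted and re-expressed gene, stood at 28.7, 32.3 and 25.6 RPKM.

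Interleukin-4 and interleukin-13 are related cytokines of type 2 immunity. On non-blood cells both act through a receptor made of the IL4R and IL13RA1 chains, whose associated kinases JAK1 and TYK2 phosphorylate the transcription factor STAT6. IL13RA2 is a second interleukin-13 receptor that binds the cytokine tightly but has only a short tail inside the cell and no region for binding a JAK kinase. It is therefore known as a decoy receptor, although signalling through it has also been described, and it is counted among the cancer-testis antigens because it is found in testis and in several tumour types.

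The end of the coding sequence is shown because it holds this tail. The GENCODE release 29 transcript of IL13RA2 (GRCh38, chromosome X, minus strand) has 10 exons and 1371 bases, of which 1143 are coding with the stop, for 380 codons before it. Its last 120 coding bases, with the stop codon in capitals, encode the end of the protein.

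IL13RA2 coding end: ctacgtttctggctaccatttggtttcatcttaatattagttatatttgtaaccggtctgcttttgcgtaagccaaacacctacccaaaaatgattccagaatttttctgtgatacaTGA

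In the wt library IL13RA2 stood at 6.10 RPKM, in that of S473A at 8.97 and in that of S473D at 22.7. The level was lowest with wild-type KAP1, higher with the alanine form and highest with the aspartate form, and the counting intervals of the 3 libraries (5.31 to 6.97, 8.07 to 9.94 and 21.1 to 24.4 RPKM) did not overlap. The 3 values correspond to 216, 363 and 749 reads. These whole numbers were recovered from the steps between low values and came within 0.00084 of a whole read at a gene length of 1373 bases, against 0.194 for the next best choice. The S473D level was 3.73 times that of wt (interval 3.20 to 4.35) and 2.53 times that of S473A (interval 2.23 to 2.88), and the S473A level was 1.47 times that of wt (interval 1.24 to 1.75).

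On the log2(RPKM + 1) scale these differences were 1.74, 1.25 and 0.49. Over the 11572 genes whose mean reached 1 RPKM, IL13RA2 had the 5th highest difference between S473D and wt, the 25th highest between S473D and S473A and the 17th highest between S473A and wt. No other gene had both a step from wt to S473A and a step from S473A to S473D at least as large. IL13RA2 was the only 1 of the 6 genes to reach 2-fold between S473D and wt, where 1.09% of all genes did, and between S473D and S473A, where 1.13% did. The gene was selected for these values, and the step sizes compared are its own. Nothing is therefore read from that count, from the ranks or from the comparison of steps. Between S473A and wt 0 of the 6 reached 2-fold, as did 0.0173% of all genes.

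**Figure D1:**
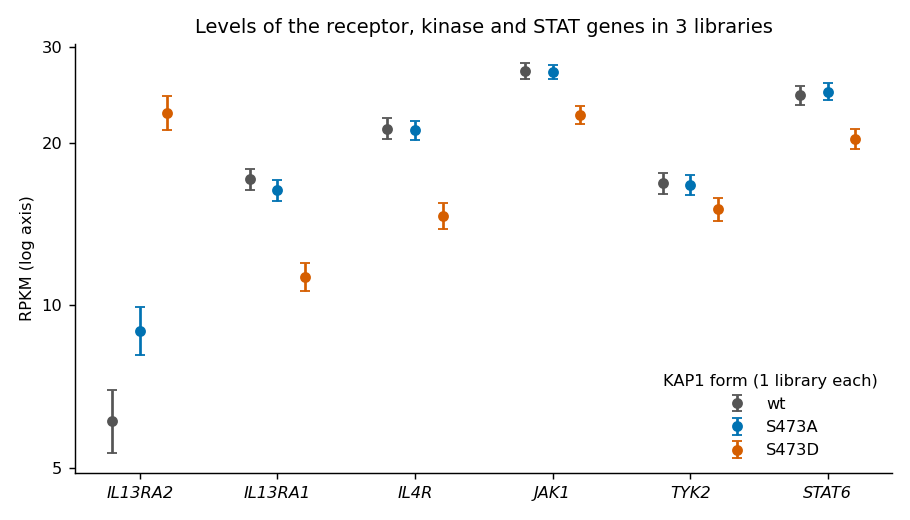
RPKM (log axis) of the 6 genes in the wt, S473A and S473D libraries, 1 point per library with its exact 95% counting interval. IL13RA2 goes from 6.10 to 22.7 RPKM, while the other 5 genes are nearly level in wt and S473A and lower in S473D.

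The chains of the signalling receptor went the other way in S473D. IL13RA1, the interleukin-13 binding chain of that receptor, stood at 17.1, 16.3 and 11.3 RPKM. Its wt level was 1.52-fold that of S473D (interval 1.41 to 1.64), a log2 difference of -0.56. IL4R, the chain shared by both cytokines, stood at 21.2, 21.1 and 14.6 RPKM, and its wt level was 1.45-fold that of S473D (interval 1.35 to 1.56; log2 difference -0.51). For both chains S473D alone was low, and wt and S473A overlapped within counting error. As deposited, 4.05% of all genes had a lower difference between S473D and wt than IL13RA1, and 6.27% a lower one than IL4R. The ratio of IL4R to IL13RA1 was 1.24 in wt (interval 1.16 to 1.32), 1.29 in S473A (1.22 to 1.37) and 1.30 in S473D (1.20 to 1.41). In the deposited values these 2 chains thus kept their proportion within counting error.

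The balance between the 2 interleukin-13 receptors therefore differed between libraries, and as a ratio within a library it does not depend on how the libraries are scaled, although it carries any preference of a library for short transcripts. The ratio of IL13RA2 to IL13RA1 was 0.357 in wt (interval 0.308 to 0.411), 0.550 in S473A (0.490 to 0.615) and 2.02 in S473D (1.84 to 2.22). IL13RA2 was the scarcer of the 2 transcripts in wt and S473A and the more abundant in S473D. It made up 13.7% of the summed RPKM of IL13RA2, IL13RA1 and IL4R in wt, 19.3% in S473A and 46.7% in S473D, while that sum moved less, from 44.4 to 46.4 and 48.6 RPKM. Transcript levels say nothing of receptor protein at the cell surface, which was not measured, and in RNA from whole cultures fewer cells with a transcript cannot be told apart from less of it per cell.

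The kinase genes differed less. JAK1, the kinase that binds IL4R, stood at 27.1, 27.0 and 22.5 RPKM (log2 difference of S473D from wt -0.26). Its wt level was 1.20-fold that of S473D (interval 1.15 to 1.27). TYK2, the kinase that binds IL13RA1, stood at 16.8, 16.7 and 15.0 RPKM (log2 difference -0.15), with wt at 1.12 times S473D (interval 1.04 to 1.20). STAT6, the transcription factor both cytokines activate, stood at 24.5, 24.9 and 20.3 RPKM (log2 difference -0.26), with wt at 1.20 times S473D (interval 1.14 to 1.28). In each of these 3 genes S473D was the low library, and wt and S473A overlapped. The intervals leave out any error in the library scale. With a trimmed mean of log ratios as that scale, the differences of S473D from wt were -0.15 for JAK1, -0.05 for TYK2 and -0.15 for STAT6.

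Values below wt were common in S473D. Of all genes 60.7% were lower there, with a median difference of -0.10, and 5 of these 6 genes were. The differences of JAK1 and STAT6 lay above those of about 31% of all genes, and that of TYK2 above 43.8%, well inside the range of the whole table. Between S473A and wt, the 5 genes other than IL13RA2 had differences from -0.06 to 0.02, and every counting interval of their ratios included 1.

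**Figure D2:**
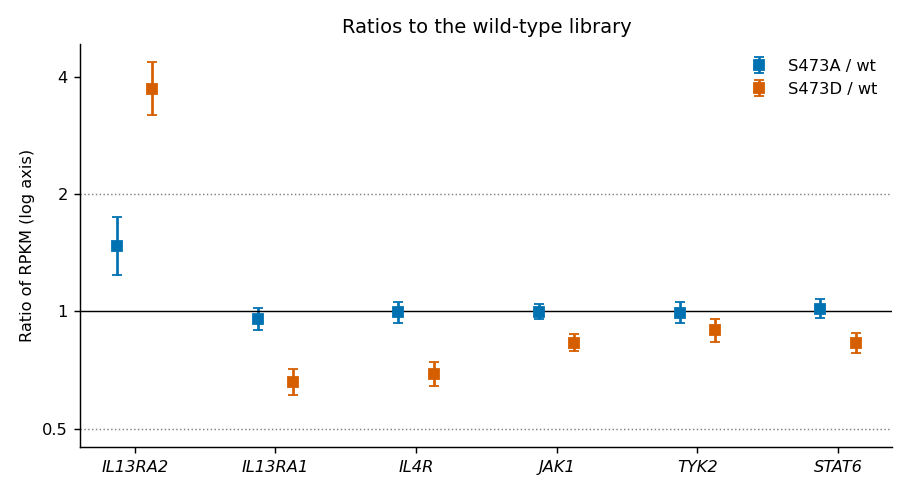
Ratios of RPKM to the wt library (log axis) for S473A and S473D, with exact 95% counting intervals; dotted lines mark 2-fold. The S473A ratios of 5 genes lie at 1 within counting error, and IL13RA2 stands at 1.47 in S473A and 3.73 in S473D.

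In wt the order of levels was JAK1, STAT6, IL4R, IL13RA1, TYK2 and IL13RA2, and only IL13RA1 and TYK2 overlapped as neighbours within counting error. In S473A IL13RA1 and TYK2 changed places, again overlapping, and IL13RA2 remained last. In S473D IL13RA2 was first at 22.7 RPKM, overlapping with JAK1 at 22.5, followed by STAT6, the overlapping pair TYK2 and IL4R, and IL13RA1. The highest and lowest transcripts of the 6 in S473D were thus the 2 genes for interleukin-13 binding chains.

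Transcript length and base composition moved with the differences of S473D. Across 10782 genes with a GENCODE transcript, the difference between S473D and wt had a Spearman correlation of -0.44 with length and -0.26 with GC content, both across genes of the same 2 libraries, while that between S473A and wt had -0.01 and 0.08. The IL13RA2 transcript is short and poor in GC, with 10.8% of genes shorter and 10.1% lower in GC content (38.7%). The other 5 transcripts have 3685 to 5047 bases. With genes divided by length into 10 bins of similar size, in the bin that holds IL13RA2 (1324 to 1841 bases) the median difference between S473D and wt was 0.14, and in those that hold the other 5 genes it was -0.13 to -0.22. Within its own bin of 1079 genes IL13RA2 had the highest difference between S473D and wt. It was 4th highest there between S473D and S473A and 3rd highest between S473A and wt. Nothing is read from these ranks, since the gene was selected for these values. In that bin 15 genes (1.39%) were at least 2-fold higher in S473D than in wt.

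Removing smooth trends on length and GC content left IL13RA2 at 1.17 between S473D and wt and at 0.67 between S473D and S473A. It thus no longer reached 2-fold in the latter, and it was at 0.50 between S473A and wt. Among the 10782 genes these differences ranked 8th, 100th and 13th highest. IL13RA1 stayed at -0.59 between S473D and wt and IL4R was at -0.31, against a median of -0.10 for all genes. JAK1 was then at -0.14 and STAT6 at -0.03, above that median for STAT6, and TYK2 turned to 0.11. Of all genes with a matched transcript 65.6% were lower in S473D than in wt after this removal. What length and composition contribute to the differences of these genes beyond those values was not tested.

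**Figure D3:**
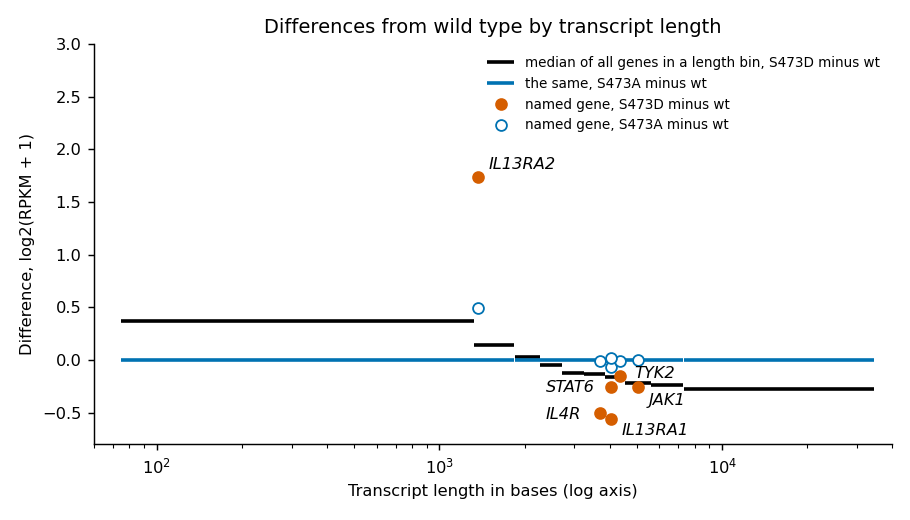
Difference from wt on the log2(RPKM + 1) scale against transcript length (log axis), for the 6 genes (circles, filled for S473D and open for S473A) and as the median of all genes in each of 10 length bins (bars). The S473D medians descend from 0.37 for the shortest bin to -0.27 for the longest, the S473A medians stay near 0, and IL13RA2 lies above both.

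RefSeq promoter sequences (GRCh38.p14) matched 5 of the 6 genes, IL13RA1, IL4R, JAK1, TYK2 and STAT6. The 250 bases before the start of IL13RA1 and IL4R are shown because these 2 of the 6 genes had the lowest differences between S473D and wt. Capitals mark GC boxes, the letters GGGCGG on either strand, including overlapping ones.

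IL13RA1 promoter, chrX:118727356-118727605, plus strand: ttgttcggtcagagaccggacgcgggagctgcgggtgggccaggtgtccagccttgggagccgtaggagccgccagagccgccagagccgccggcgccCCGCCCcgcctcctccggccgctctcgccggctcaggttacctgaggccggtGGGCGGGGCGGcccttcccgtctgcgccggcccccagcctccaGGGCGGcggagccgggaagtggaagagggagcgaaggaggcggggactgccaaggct

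IL4R promoter, chr16:27313724-27313973, plus strand: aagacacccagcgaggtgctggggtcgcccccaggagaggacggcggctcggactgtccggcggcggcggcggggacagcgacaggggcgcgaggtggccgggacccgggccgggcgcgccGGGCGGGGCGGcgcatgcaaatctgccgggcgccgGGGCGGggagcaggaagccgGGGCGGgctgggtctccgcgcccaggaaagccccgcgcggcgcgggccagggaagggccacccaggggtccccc

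Both stretches hold 4 GC boxes, a motif present in 42.6% of 35116 promoters cut to the same length, and both are rich in CpG, with 28 in IL13RA1 and 35 in IL4R against a median of 11. STAT6 has 2 GC boxes, and JAK1 and TYK2 have 0. The STAT6 letters TTCNNNNGAA, found in 5.38% of promoters, and the AP-1 letters TGANTCA, found in 6.57%, were in none of the 5 stretches on either strand. These are matches of letters in a short window and not sites of binding.

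The ligands were at or near 0 in these cells. IL4 was listed at 0.0679, 0.0594 and 0 RPKM, and IL13 at 0.0302, 0 and 0. The list of ligands and further receptor chains had 7 of 11 genes in the table, and 5 were below a mean of 1 RPKM. TMEM219, known as a partner of IL13RA2 in binding the chitinase-like protein CHI3L1, stood at 24.99, 22.2 and 28.9 RPKM. Its log2 difference between S473D and wt was 0.20, or -0.17 with the trends on length and GC content removed. CHI3L1 itself was listed at 0, 0 and 0.0227 RPKM. IL7R, the chain that TSLP and interleukin-7 receptors share, was at 8.94, 6.88 and 6.10 RPKM (log2 differences from wt -0.34 and -0.49).

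The rest of the pathway was read from lists that were chosen with earlier results of these data known. Among the other JAK and STAT genes, 5 of 8 had a mean of at least 1 RPKM. Of these, 4 were lower in S473D than in wt and 1 was higher, where 60.7% of all genes were lower. On the log2(RPKM + 1) scale 0 reached 2-fold (median -0.28 against -0.10 for all genes). STAT3, which carries interleukin-6 signals, was lowest at 21.3, 21.6 and 14.5 RPKM (-0.53, or -0.31 with the trends removed). STAT5A was the exception, with a low level that climbed in the same order as IL13RA2, from 0.702 RPKM in wt to 1.05 in S473A and 1.48 in S473D. Its RPKM in S473D was 2.11-fold that of wt (interval 1.59 to 2.80) and its log2 difference was 0.55, or 0.79 with the trends removed. JAK2 stood at 1.005, 0.873 and 0.906 RPKM, and JAK3 at 0.129, 0.137 and 0.0996.

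Adaptors and the PI3K branch, which carry the insulin-receptor-substrate arm of interleukin-4 signalling, were lower in S473D as deposited. All 11 genes measured of 13 in the list were below wt, where 60.7% of all genes were, with a median of -0.30 (-0.10 for all genes) and 0 genes 2-fold apart. PIK3R2, a regulatory subunit of PI3K, was lowest at 23.0, 22.5 and 14.9 RPKM (-0.60), followed by GAB2 (-0.49) and the catalytic subunit gene PIK3CA (-0.43). IRS2, the main substrate for interleukin-4 in many cells, was at 4.25, 4.43 and 3.27 RPKM (-0.30). With the trends on length and GC content removed, 9 of the 11 were lower, where 65.6% of all genes were. The list's median was then -0.19 (-0.10 for all genes), and IRS2 (0.07) and IRS1 (0.01) were above wt. The order changed as well, with PIK3CA lowest (-0.52), then PIK3CB (-0.35) and PIK3R2 (-0.33), and GAB2 at -0.19. Between S473A and wt, 6 of the 11 were lower and 5 higher, where 50.2% of all genes were lower, with a median of -0.01.

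Negative regulators of the pathway were also mostly below wt in S473D. Of 17 measured genes 16 were lower and 1 higher, where 60.7% of all genes were lower, and 0 reached 2-fold. The median was -0.28, against -0.10 for all genes, and -0.18 with the trends removed. The adaptor gene SH2B3, which restrains JAK kinases, was at 36.0, 34.1 and 25.1 RPKM (-0.51, or -0.21 with the trends removed), and PTPN1, which encodes a phosphatase of JAK kinases and STAT6, at 54.7, 55.6 and 38.4 RPKM (-0.50). SOCS1, a feedback inhibitor induced by STAT6, was low in every library, at 1.43, 1.70 and 0.856 RPKM (-0.39), and was the lowest of the list with the trends removed (-0.61). SOCS3 stood at 21.5, 22.8 and 16.4 RPKM (-0.37), while SOCS2 was at 0.01 and SOCS5 at -0.02 between S473D and wt.

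Among cofactors of STAT6, 9 of 10 measured genes were lower in S473D, where 60.7% of all genes were, and 0 reached 2-fold. The median was -0.34, against -0.10 for all genes, and -0.15 with the trends removed. CREBBP, a histone acetyltransferase gene, was at 9.60, 9.96 and 6.25 RPKM (-0.55), its relative EP300 was at -0.45, and POLR2A, the largest subunit of RNA polymerase II, at -0.55. With the trends removed these became -0.18 for CREBBP, -0.12 for EP300 and -0.22 for POLR2A. CEBPB, a transcription factor gene, was then lowest at -0.40 (-0.42 before), with 55.1, 57.5 and 41.1 RPKM. The helicase gene DHX9 was the 1 above wt (0.04).

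Target genes of STAT6, interleukin-4 or interleukin-13 were mostly low, and the list was not split into induced and repressed genes. Of 28 in the list 19 were in the table and 6 had a mean of at least 1 RPKM, 3 of them higher and 3 lower in S473D than in wt (median 0.01). The median was -0.04 when a mean of 5 RPKM was required, 0.11 with the differences centred on all genes, 0.12 with the trimmed mean as scale and 0.11 with the trends removed. CCL26, the eotaxin gene often used as a readout of STAT6, stood at 0.345, 0.422 and 0.889 RPKM, and the interval of its ratio between S473D and wt (0.985 to 8.45) included 1. CISH, another such readout, was at 0.403, 0.386 and 0.571 RPKM. Among the weak targets that interval excluded 1 for SPDEF and CST1, in opposite directions. SPDEF stood at 0.207, 0.163 and 0.466 RPKM (interval 1.02 to 5.37) and CST1 at 0.306, 0.424 and 0 RPKM (interval 0 to 0.912). CTSC, a lysosomal protease gene, was highest at 169, 164 and 255 RPKM (0.59), and EPAS1, a hypoxia-responsive transcription factor gene, was lowest at 8.13, 6.52 and 5.59 RPKM (-0.47, or -0.21 with the trends removed). CCL2, a chemokine gene with many inducers, was high in S473A alone, at 7.84, 15.3 and 8.20 RPKM. Its S473D difference of 0.06 became -0.76 with the trends removed.

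Of the chains of other cytokine receptors that use JAK1 or TYK2, 12 of 24 were measured at a mean of at least 1 RPKM, 10 lower and 2 higher in S473D, where 60.7% of all genes were lower, and 0 reached 2-fold. The median was -0.15, against -0.10 for all genes, and it was -0.05 with the differences centred on all genes and -0.23 with the trends removed. OSMR, the oncostatin M receptor gene, was at 37.9, 39.3 and 25.5 RPKM (-0.55). IL15RA (-0.53) and IL6R (-0.51) followed, of which IL15RA was at -0.62 and IL6R at -0.25 with the trends removed, and IL6ST, the shared chain gp130, was at 30.9, 31.5 and 26.9 RPKM (-0.19). The interferon-gamma receptor genes were the 2 above wt, IFNGR1 at 11.7, 12.0 and 15.7 RPKM (0.39, or 0.16 with the trends removed) and IFNGR2 at 15.0, 15.3 and 17.8 RPKM (0.23).

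Signalling through IL13RA2 has been described to run over AP-1 and to induce TGFB1, and that list had the lowest median of the pathway lists in S473D against wt, as it does with the trends on length and GC content removed (median -0.49 before and -0.38 after). Of 12 measured genes 10 were lower and 2 higher, where 60.7% of all genes were lower with a median of -0.10, and 0 reached 2-fold. TGFB1, a cytokine gene of fibrosis and invasion, stood at 17.7, 18.1 and 10.3 RPKM, a ratio of S473D to wt of 0.580 (interval 0.527 to 0.637). FOSL2, an AP-1 subunit gene, was at 40.4, 38.4 and 20.6 RPKM (-0.94), and JUN at 98.2, 100.1 and 65.9 RPKM (-0.57), and with the trends removed FOSL2 was at -0.64 and JUN at -0.39. JUNB was above wt, at 13.2, 13.4 and 15.3 RPKM (0.20), and FOS at 0.07. In S473A the 12 measured genes lay within 0.15 of wt on the log2 scale. The median over all genes was -0.0004 in that comparison, and 0.0173% of them were 2-fold apart, so nothing is read from this closeness to wt.

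**Figure D4:**
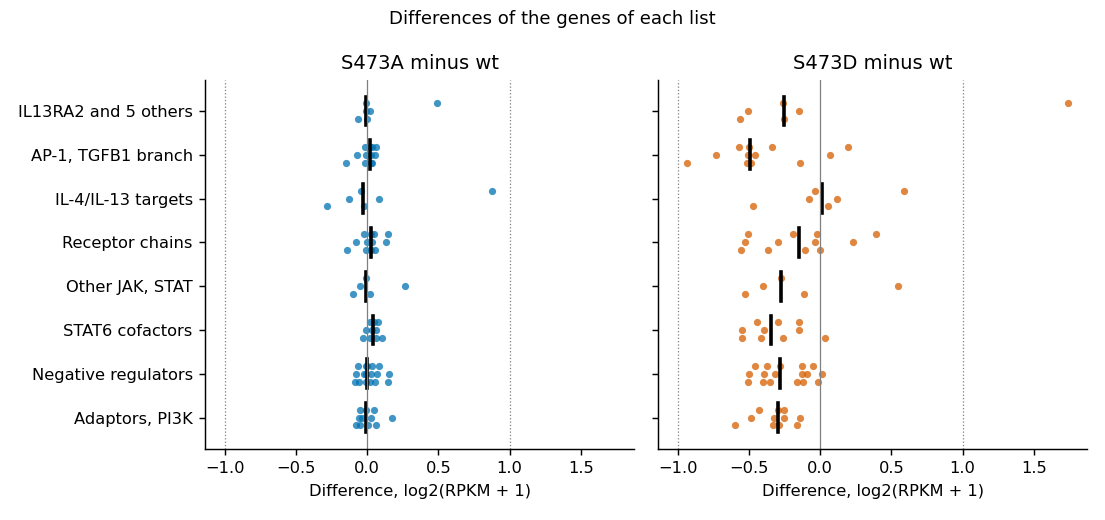
Differences from wt on the log2(RPKM + 1) scale for S473A and S473D in 8 lists, 1 point per gene kept, with vertical bars at list medians and dotted lines at 2-fold. The S473D medians lie between -0.49 and 0.01 and the S473A medians near 0, with IL13RA2 as the point at 1.74.

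The genes whose pattern over the 3 libraries was most like that of IL13RA2 were sought among 8181 others whose mean reached 5 RPKM, by the distance between log2(RPKM + 1) values after each gene's mean was subtracted. LY96, the gene for MD-2, which helps TLR4 bind endotoxin, was nearest at a distance of 0.12, with 3.70, 5.12 and 12.9 RPKM. CCDC167 (0.17) stood at 21.1, 25.7 and 63.5 RPKM, and the noncoding FLJ22447 (0.24) at 2.95, 3.50 and 9.77 RPKM. The cancer-testis antigen genes XAGE1A and XAGE1B shared a distance of 0.26 and the same values, 8.49, 9.92 and 23.9 RPKM. XAGE1C, XAGE1D and XAGE1E tied with them. These are near-identical copies, so their levels are uncertain. The matched transcripts of LY96, CCDC167, FLJ22447, XAGE1A and XAGE1B have 607 to 1312 bases, all shorter than that of IL13RA2, and with the trends on length and GC content removed their differences between S473D and wt were 0.51 for LY96, 0.97 for CCDC167, 0.88 for FLJ22447 and 0.83 for XAGE1A and XAGE1B, against 1.17 for IL13RA2.

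The neighbours of IL13RA2 on chromosome X were low in these cells. Of the 3 protein-coding genes on each side in the RefSeq table, 4 were in the deposited table. HTR2C, a serotonin receptor gene next to IL13RA2, stood at 0.739, 0.672 and 0.851 RPKM, and AMOT, which encodes angiomotin, at 1.18, 1.34 and 1.23 RPKM. LHFPL1 was at most at 0.0220 RPKM and LUZP4 at most at 0.0241. None of these 4 followed the steps of IL13RA2. No other gene of the 11572 kept had both steps at least as large either, so nothing is read from this.

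Leukocyte markers other than CD68 and all endothelial markers in the table had a mean below 1 RPKM, whereas keratins of luminal cells were abundant. The leukocyte gene PTPRC was listed at 0.0264 RPKM in wt and at 0 in S473A and S473D, and of the 5 immune markers in the table only CD68, a lysosomal gene also found outside leukocytes, was above 1 RPKM (50.1, 51.6 and 36.7). The 5 endothelial markers summed to 1.05, 0.986 and 1.05 RPKM. The 10 epithelial or luminal markers summed to 325, 316 and 396 RPKM, most of it KRT8 and KRT18, and the 8 mesenchymal markers to 1383, 1381 and 1184 RPKM. The keratin gene KRT19, at 11.1, 9.45 and 21.5 RPKM, was higher in S473D than in wt (0.89, or 0.70 with the trends removed). Unlike IL13RA2 it was lower in S473A than in wt (-0.22). Of the 6 epithelial or luminal markers with a mean of at least 1 RPKM, 4 were higher and 2 lower in S473D than in wt, where 60.7% of all genes were lower. The 2 lower ones were ERBB2 (-0.50) and GATA3 (-0.15). With the trends removed 3 were higher and 3 lower, where 65.6% of all genes were lower. Of the 7 mesenchymal markers with such a mean, 6 were lower and 1 higher, both as deposited and with the trends removed. The part of these marker changes in the results above was not tested.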

How the data were processed

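Total RNA from 3 samples was made into sequencing libraries, per the labels' protocols. Bowtie, Partek and build hg19 are named in the submitters' processing notes (versions, annotation and counting rule: not given in the sources used here). Values as deposited are log2 of RPKM with 0.1 added, per the file name and the lowest value of -3.32, and RPKM was recovered by undoing this.

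Of 19076 entries 27 with altered or repeated symbols were left out. Genes whose mean reached 1 RPKM were kept, without 176 short RNAs, leaving 11572. Differences were taken on log2(RPKM + 1), with genes counted at a fixed size of 2-fold. The value of 1 read came from the commonest ratio between low genes (0.875 for S473A and 1.07 for S473D relative to wt) and depth from low values times GENCODE 29 transcript length, giving 25800000, 29500000 and 24000000 reads for wt, S473A and S473D. Whole reads were recovered for IL13RA2 and TRIM28 and estimated elsewhere. Intervals are exact binomial (ratios) or Poisson (levels). Length and GC trends (lowess, fraction 0.2, 2 rounds, statsmodels 0.14.6) used 10782 genes (93.2%), keeping the overall median. Because RPKM is a share of a library's reads, abundant transcripts in one library lower its other values.

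The members, lists and alternatives were chosen with earlier results of these data known. Named genes are the 6 members, TRIM28, up to 3 highest and 3 lowest of each list, the ligands, the 5 nearest in pattern and the chromosomal neighbours; protein-coding neighbours were used, and further list genes (among them IRS2, IL6ST, CCL26, CISH, JAK2, JAK3, SOCS1, SOCS3, CHI3L1, FOS) and markers were picked after their values were seen. IL2RG was not analysed here. Calculations were tested on simulated data.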

Additional observations from a re-analysis of the deposited data

How the results depend on the processing

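The difference of IL13RA2 between S473D and wt was 1.74, and it ranged from 1.74 to 1.88 with pseudocounts of 0.1 and 0.5, with differences centred on the median of all genes and with a trimmed mean of log ratios as the library scale. Removing the trends on length and GC content gave 1.17, and for S473D against S473A it gave 0.67, so that the number of the 6 genes 2-fold apart in that comparison went from 1 to 0. Under the other alternatives IL13RA2 was at 1.25 to 1.36 between S473D and S473A. The other 2 counts of the 6 genes kept their value under every alternative run, and IL13RA2 ranged from 0.49 to 0.55 between S473A and wt. Of the other 5 genes, TYK2 changed sign between S473D and wt, from -0.15 to 0.11, and between S473D and S473A, from -0.14 to 0.13, with the trends removed. The differences of these 5 genes between S473D and wt also depended on the library scale. With the trimmed mean, IL13RA1 was at -0.46, IL4R at -0.40, JAK1 and STAT6 at -0.15 and TYK2 at -0.05, all smaller in size than the main values. Of all genes, 115 were 2-fold higher and 11 lower in S473D than in wt; centring gave 197 and 8, and removing the trends 21 and 33 of 10782. With 1 library per group no replicate could be left out, and no paired analysis was possible because each group has 1 library. Depth limits the ligands and the weakly expressed targets, where a few reads decide the value.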
